A study of Mus musculus with 6 samples.

Results

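The complement genes examined here were *C1qa*, *C1qb*, *C1qc*, *C1ra*, *C2*, *C4b*, *C3*, *Cfb* and *C3ar1*. They are 9 of the 37384 genes in the count table and were taken by gene symbol, with *Cfd* left aside as a gene for comparison. RNA came from adipocytes of inguinal subcutaneous white adipose tissue (scWAT) of male mice on postnatal day 7 (P7), in 6 libraries, each from a pool of 4 mice. The 3 control libraries were from *Lats1f/fLats2f/f* mice (L1L2-FF), which carry floxed *Lats1* and *Lats2* and no Cre. The other 3 were labelled L1L2-AKO, with the same floxed alleles and *AdipoqCre*, a constitutive Cre driven by the promoter of the adipocyte gene *Adipoq*, and are called AKO-labelled libraries below. *Lats1* and *Lats2* encode the kinases of the Hippo pathway that hold the co-activators YAP and TAZ in check, and the comparison asks what their loss in adipocytes does to the transcriptome of the cell fraction collected. Cells were released with collagenase and collected because they floated, so a blood or stromal cell attached to a fat cell is counted with it.

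Complement is a cascade of plasma and tissue proteins that tags surfaces for removal and draws in leukocytes. In the classical pathway C1q binds a target, with the proteases C1r and C1s attached to it. C1r is activated first, C1s cleaves C4 and C2, and the resulting enzyme splits C3. The alternative pathway reaches C3 through factor B and factor D. Factor D, also called adipsin and encoded by *Cfd*, is a long-known product of fat cells, whereas tissue macrophages are a main source of C1q.

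Of the 9 genes, 5 were higher in the AKO-labelled libraries (*C1qa*, *C1qb*, *C1qc*, *C1ra* and *C3ar1*), 1 was lower (*C3*), and 3 did not pass the test (*C2*, *C4b* and *Cfb*). The test was the quasi-likelihood test of edgeR, two-sided, on TMM-normalized counts, with Benjamini-Hochberg adjustment over 15674 genes and a threshold of 0.05. Of all genes tested it called 16.5%, made up of 9.28% called higher and 7.18% called lower. All 9 genes passed the filter on low counts. The 2 groups of libraries did not overlap for 7 of the 9 genes, against 36.4% of all genes tested. The median log2 fold change of the 9 genes was 1.33, beside -0.02 for all genes tested. Levels below are TMM-normalized CPM, the reads of a gene scaled to the depth and composition of its library.

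**Figure D1:**
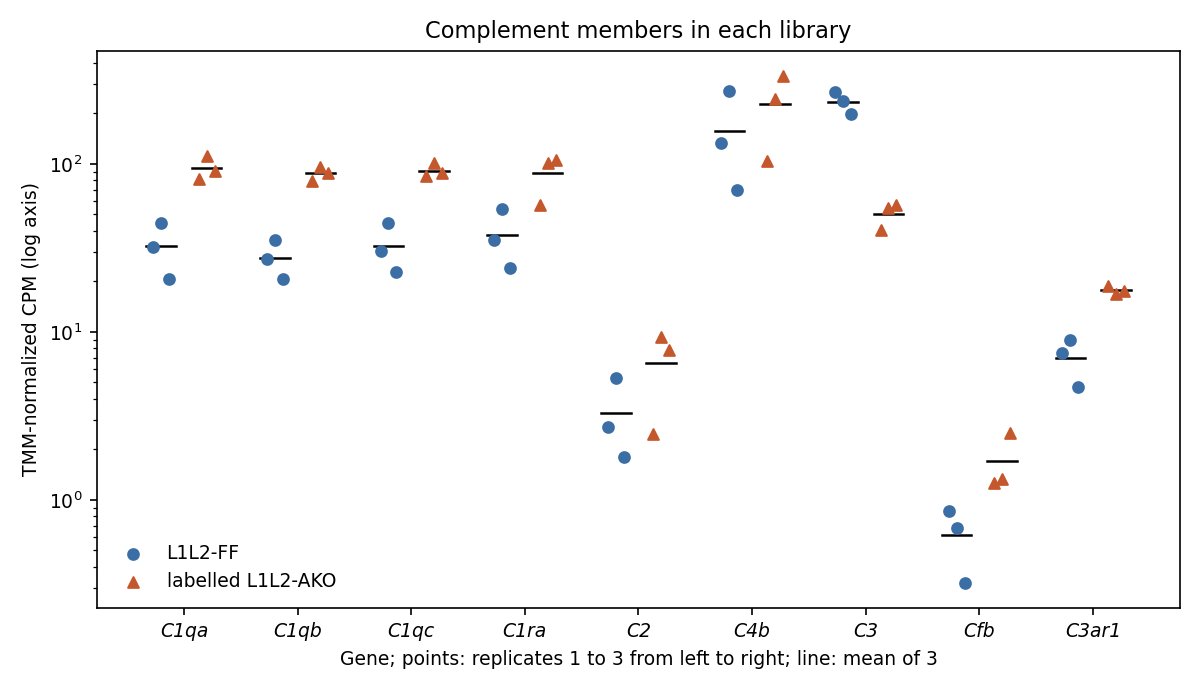
Level of each of the 9 complement genes in the 6 libraries, as TMM-normalized CPM on a log axis. Circles are L1L2-FF replicates 1 to 3 from left to right, triangles are the AKO-labelled libraries in the same order, and lines are means of 3. The triangles lie above every circle for *C1qa*, *C1qb*, *C1qc*, *C1ra*, *Cfb* and *C3ar1*, and below every circle for *C3*. For *C2* and *C4b* the groups overlap, with triangles 2 and 3 of *C2* and triangle 3 of *C4b* above every circle.

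Some facts of the whole series bear on these values. Total counts ranged from 30548473 to 32107917 per library. The targeted genes were checked first: *Lats1* fell from 82.9 ± 9.90 to 40.2 ± 1.16 CPM (SD, n = 3 libraries each, edgeR adjusted p = 0.00131), but *Lats2* rose from 76.4 ± 8.68 to 119 ± 20.6 CPM (SD, n = 3 each, edgeR adjusted p = 0.0278), against the label. Counts per gene do not show which exons were lost, and the group is therefore called the AKO-labelled libraries throughout. The labelled cell type was checked with 12 mature adipocyte markers, led by *Car3*, *Fabp4* and *Adipoq*, whose summed level was 28195 to 41276 CPM in L1L2-FF and 17788 to 22802 CPM in the AKO-labelled libraries. Of these 12 markers, 5 fell and 7 did not pass the test (median log2 fold change -0.60). Of 15 macrophage markers, 11 rose and 4 did not pass (median 1.29), and their summed level went from 207 to 384 CPM in L1L2-FF to 697 to 766 CPM. The other marker lists are given further on.

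The 3 chains of C1q, the subunit that recognizes targets, are encoded by neighbouring genes on the minus strand of chromosome 4. In mm10 with GENCODE M21 they lie at chr4:136880129-136886187 (*C1qb*), chr4:136889804-136893065 (*C1qc*) and chr4:136895917-136898803 (*C1qa*). None shares a stretch of 50 bases with the transcripts of another gene. RefSeq start-site windows on GRCm38.p6 (mm10), running from 250 bases before the start of transcription to 50 after it, were at hand for 5 of the 9 genes. Those of *C1qb* and *C1qc* are shown because the 2 genes moved together. They span chr4:136886151-136886450 and chr4:136892865-136893164 and are written 5′ to 3′ on the minus strand, that of the genes. Capitals mark letters that match a searched motif on either strand.
C1qb: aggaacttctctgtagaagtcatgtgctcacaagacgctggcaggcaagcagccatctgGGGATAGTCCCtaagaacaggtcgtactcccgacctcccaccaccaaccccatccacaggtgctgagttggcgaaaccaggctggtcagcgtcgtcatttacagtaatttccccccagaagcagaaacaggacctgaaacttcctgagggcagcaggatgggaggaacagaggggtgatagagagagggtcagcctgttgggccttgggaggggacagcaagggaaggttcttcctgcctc
C1qc: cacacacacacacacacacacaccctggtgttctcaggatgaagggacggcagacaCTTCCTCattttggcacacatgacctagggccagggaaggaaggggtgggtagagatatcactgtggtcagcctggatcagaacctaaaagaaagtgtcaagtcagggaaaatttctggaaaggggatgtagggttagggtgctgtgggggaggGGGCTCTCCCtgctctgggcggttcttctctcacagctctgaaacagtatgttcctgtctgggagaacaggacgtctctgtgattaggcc
The capitals in *C1qb* are 2 overlapping matches, 1 on each strand, to a form of the NF-kB motif (GGGA, then 4 bases of any kind, then CC), whose first bases lie 191 and 190 bases before the start. In *C1qc* the first capitals match GAGGAAG on the other strand, a form of the PU.1 motif of myeloid cells, 194 bases before the start, and the second match the NF-kB form 40 bases before it. Over 32851 RefSeq windows of this length, searched on both strands, 13.6% held GAGGAAG and 20.7% held the NF-kB form. A match describes letters in a window and says nothing about binding.

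*C1qa* was at 32.1, 44.3 and 20.7 CPM in L1L2-FF replicates 1 to 3 and at 81.2, 111 and 90.3 CPM in AKO-labelled libraries 1 to 3. The lowest of the second group was above the highest of the first, and L1L2-FF replicate 3 was the lowest of all. *C1qa* rose 2.91-fold (log2 fold change 1.54, standard error 0.261, edgeR adjusted p = 0.00661). *C1qb* was at 27.1, 35.5 and 20.6 CPM in L1L2-FF and at 79.5, 96.1 and 88.1 CPM in the AKO-labelled libraries. It rose 3.17-fold, by 1.67 on the log2 scale (standard error 0.196, edgeR adjusted p = 0.00151), again without overlap. *C1qc* was at 30.1, 44.7 and 22.8 CPM in L1L2-FF and at 84.2, 101 and 87.9 CPM in the AKO-labelled libraries. Its rise was 2.79-fold (log2 fold change 1.48, standard error 0.230, edgeR adjusted p = 0.00466). All 3 chains kept their calls with any 1 library left out, where the largest adjusted p was 0.0363 for *C1qa*.

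The chains held similar parts of the C1q reads in every library. *C1qa* gave 32.3% to 36.0% of the summed CPM of the 3 genes, *C1qb* gave 28.5% to 33.1% and *C1qc* gave 32.8% to 35.9% over the 6 libraries. The summed level was 92.6 ± 30.4 CPM in L1L2-FF and 273 ± 32.0 CPM in the AKO-labelled libraries (SD, n = 3 each). The spread within L1L2-FF was thus common to the chains: replicate 2 was the highest and replicate 3 the lowest for each of them.

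Macrophage markers moved with C1q between the groups. Their summed level was 281, 384 and 207 CPM in L1L2-FF replicates 1 to 3, in the same order of replicates as C1q, and 720, 766 and 697 CPM in the AKO-labelled libraries. In that group the order differed: summed C1q was 245, 308 and 266 CPM, lowest in library 1, while the macrophage markers were lowest in library 3. The most abundant by mean over all 6 libraries were the scavenger receptors *Mrc1* and *Cd163* and the growth factor receptor *Csf1r*, which rose 3.58-fold, 2.78-fold and 2.36-fold (edgeR adjusted p = 0.00213, 0.0122 and 0.0155). With 1 library left out, the call of *Mrc1* held in all 6 fits. That of *Cd163* was lost without L1L2-FF replicate 1 (edgeR adjusted p = 0.0592). That of *Csf1r* was lost without L1L2-FF replicate 1 and without AKO-labelled library 2 (up to 0.0731). *Mertk*, *Lyve1*, *Timd4* and *Folr2*, the 4 markers of the list that did not pass, had log2 fold changes of -0.03, 0.48, 0.45 and 0.59. Summed C1q was 0.317, 0.324 and 0.309 of the summed macrophage markers in L1L2-FF and 0.340, 0.402 and 0.382 in the AKO-labelled libraries. This ratio was 1.18-fold higher in the second group, 0.24 on the log2 scale, without overlap (exact permutation test over 20 regroupings, two-sided, p = 0.1, the smallest value that 3 against 3 libraries can give). With the 5 most abundant markers only, the difference was 0.04 on the log2 scale (exact permutation p = 0.7), and in CPM per kilobase of exon it was 0.41 (exact permutation p = 0.1). In bulk RNA, more macrophages and more C1q RNA in each of them cannot be told apart, and the same holds for each gene below.

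**Figure D2:**
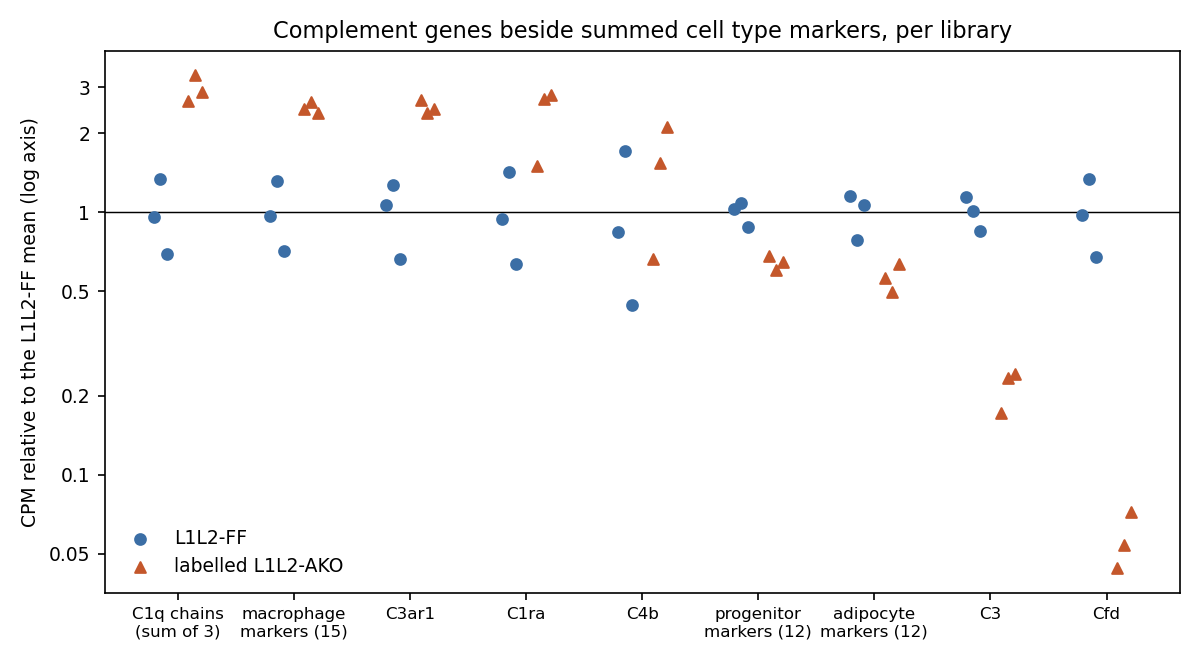
Complement genes beside summed marker levels, each as CPM relative to its own L1L2-FF mean on a log axis. Circles are L1L2-FF libraries and triangles the AKO-labelled libraries, replicates 1 to 3 from left to right. For the C1q chains, the 15 macrophage markers and *C3ar1* all triangles lie above all circles, for *C4b* they overlap, and the triangles of *C3* and *Cfd* lie lower than those of the 12 adipocyte markers.

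*C3ar1* encodes the receptor for C3a, the small fragment released when C3 is cleaved, and is found on myeloid cells. It lies at chr6:122847138-122856161 on the minus strand and shares no 50-base stretch with another gene. Its level was 7.47, 8.94 and 4.67 CPM in L1L2-FF and 18.9, 16.7 and 17.4 CPM in the AKO-labelled libraries. The second group was tight, its highest library 1.13 times its lowest, and lay above every control. *C3ar1* rose 2.52-fold (log2 fold change 1.33, standard error 0.232, edgeR adjusted p = 0.00754), and the call held with any 1 library left out (adjusted p up to 0.0342). The part of the macrophage markers in this rise was not tested.

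*C1ra* encodes C1r, the protease of the C1 complex that is activated first. It lies at chr6:124512405-124523443 on the plus strand, and its RefSeq window (chr6:124512371-124512670, plus strand), whose start lies inside the GENCODE gene, is shown because it held a searched motif at 3 places.
C1ra: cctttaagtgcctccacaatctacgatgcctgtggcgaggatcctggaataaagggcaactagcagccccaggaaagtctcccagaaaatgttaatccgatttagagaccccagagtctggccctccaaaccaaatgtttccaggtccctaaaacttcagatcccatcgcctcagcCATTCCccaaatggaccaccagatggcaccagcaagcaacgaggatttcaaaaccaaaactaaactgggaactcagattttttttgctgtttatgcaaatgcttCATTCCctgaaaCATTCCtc
The capitals are the reverse complement of GGAATG, the core motif of the TEAD factors with which YAP and TAZ act, with first bases 74 bases before the start and 31 and 43 bases after it. GGAATG on either strand was in 14.7% of the 32851 windows, and at 3 or more places in 0.131% of them (43 windows), a count made after the places in *C1ra* had been seen. The windows of *C1qb*, *C1qc*, *C3* and *C3ar1* held no GGAATG, and that of *C3ar1* held none of the 4 motifs searched. The fourth motif, a GAAA repeat with 2 bases of any kind between its copies, as in interferon response genes, was in 3.44% of all windows and in none of these 5.

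*C1ra* was at 35.4, 53.6 and 24.0 CPM in L1L2-FF and at 56.7, 102 and 106 CPM in the AKO-labelled libraries. The groups were separated by a small gap, between L1L2-FF replicate 2 and AKO-labelled library 1. *C1ra* rose 2.33-fold (log2 fold change 1.22, standard error 0.324, edgeR adjusted p = 0.0378). This call was lost without L1L2-FF replicate 1 (adjusted p = 0.126), without L1L2-FF replicate 3 (0.0761), and without AKO-labelled library 2 (0.123) or 3 (0.123). *C1ra* shares 48.0% of its 50-base stretches with its copy *C1rb*, so reads may have been split between them. *C1rb* was far lower, at 1.21 ± 0.644 and 2.52 ± 1.12 CPM (SD, n = 3 each, log2 fold change 1.05, edgeR adjusted p = 0.190), and the sum of both gave a log2 fold change of 1.22 (adjusted p = 0.0382).

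The partner protease C1s, from *C1s1*, overlapped between the groups. *C1s1* was at 71.6, 119 and 43.9 CPM in L1L2-FF and at 83.9, 131 and 137 CPM in the AKO-labelled libraries (log2 fold change 0.59, edgeR adjusted p = 0.300). Without L1L2-FF replicate 2 its log2 fold change was 1.02 (adjusted p = 0.0392).

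*C2* and *C4b* encode the substrates that C1s cleaves, and both lie on the minus strand of chromosome 17 in the major histocompatibility region, at chr17:34862604-34898265 and chr17:34728380-34743882. *C2* was at 2.71, 5.29 and 1.80 CPM in L1L2-FF and at 2.47, 9.36 and 7.75 CPM in the AKO-labelled libraries. AKO-labelled library 1 was below L1L2-FF replicates 1 and 2, while the other two were above every control (log2 fold change 0.99, standard error 0.533, edgeR adjusted p = 0.254). *C4b* was at 133, 271 and 70.3 CPM in L1L2-FF and at 105, 245 and 333 CPM in the AKO-labelled libraries. Its highest library was 3.85 times its lowest within L1L2-FF and 3.18 times within the other group, and the log2 fold change of 0.53 was about the size of its standard error of 0.524 (edgeR adjusted p = 0.559). With 1 library left out it lay between 0.15 and 1.16 and never passed.

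The order of the libraries within a group was shared widely among the 9 genes. L1L2-FF replicate 3 was the lowest control for 9 of 9 and replicate 2 the highest for 7 of 9, the exceptions being *C3* and *Cfb*. AKO-labelled library 1 was the lowest of its group for 8 of 9, the exception being *C3ar1*. The markers of T and B cells, 8 genes led by *Cd79a*, *Cd3g* and *Ms4a1*, followed the same order, with a summed level of 9.89, 23.2 and 7.73 CPM in L1L2-FF and 11.8, 23.8 and 23.4 CPM in the AKO-labelled libraries. No T or B cell marker passed edgeR's test (0 of 8, and 0 at an unadjusted p under 0.05, with DESeq2 or with limma-voom), and the median log2 fold change was 0.74. Neutrophil and mast cell markers, 9 genes, had that order in their sum. It was 81.9, 86.2 and 67.2 CPM in L1L2-FF and 60.9, 78.5 and 78.0 CPM in the AKO-labelled libraries. Gene by gene the order was mixed in L1L2-FF, where replicate 3 alone was lowest for 4 of 9 and replicate 2 highest for 4 of 9. AKO-labelled library 1 was the lowest of its group for 7 of 9, ties at 0 included. L1L2-FF replicate 3 was also the lowest control for 15 of 15 macrophage and 8 of 8 endothelial markers. The same held for 10 of 12 progenitor and fibroblast markers, and for 2 of 12 adipocyte markers. Replicate 2 was the highest control for 7 of the 12 progenitor and fibroblast markers. AKO-labelled library 1 was the lowest of its group for 4 of those 12. It was the lowest for 6 and the highest for 5 of the 15 macrophage markers. For the endothelial markers the order was the reverse of that of the complement genes, with library 1 the highest of its group for 8 of 8. The part of any of these cells in the spread of *C2*, *C4b* and *C1ra* was not tested.

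*C4b* shares 34.6% of its 50-base stretches with *C4a*, which was at 1.72 ± 0.580 and 2.22 ± 0.837 CPM (SD, n = 3 each, log2 fold change 0.36, edgeR adjusted p = 0.594). *C2* shares 38.7% with *Gm20547*, a transcript that reads through from *C2* into *Cfb*, and 161 of its exonic bases overlap *Zbtb12* on the opposite strand. *Gm20547* was listed at 0 in all 6 libraries, and how reads common to it were counted is not given, so the levels of *C2* and *Cfb* are uncertain.

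*Cfb* encodes factor B, the protease of the alternative pathway, and lies at chr17:34856374-34862518 next to *C2*. It was the scarcest of the 9 genes, with 27, 22 and 10 counts in L1L2-FF and 42, 42 and 72 counts in the AKO-labelled libraries. In CPM these were 0.862, 0.680 and 0.322 against 1.27, 1.33 and 2.51, without overlap. The log2 fold change was 1.44 (standard error 0.459), and the gene did not pass edgeR's test (adjusted p = 0.0684), nor in any fit with 1 library left out (adjusted p of 0.0805 to 0.231). DESeq2 did call it (log2 fold change 1.46, adjusted p = 0.0268). *Cfb* shares 73.0% of its 50-base stretches with *Gm20547*. Summed with *C2* and *Gm20547*, the 3 together had a log2 fold change of 1.08 (edgeR adjusted p = 0.164). Most of this sum is *C2*, with means of 3.27 CPM in L1L2-FF and 6.53 CPM in the AKO-labelled libraries, against 0.621 and 1.70 CPM for *Cfb*. It therefore says little about *Cfb* alone.

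*C3* encodes the protein on which all pathways meet, and it alone of the 9 fell. It lies at chr17:57203970-57228136 on the minus strand and shares no 50-base stretch with another gene. Its RefSeq window (chr17:57228087-57228386, minus strand) is shown because *C3* alone fell.
C3: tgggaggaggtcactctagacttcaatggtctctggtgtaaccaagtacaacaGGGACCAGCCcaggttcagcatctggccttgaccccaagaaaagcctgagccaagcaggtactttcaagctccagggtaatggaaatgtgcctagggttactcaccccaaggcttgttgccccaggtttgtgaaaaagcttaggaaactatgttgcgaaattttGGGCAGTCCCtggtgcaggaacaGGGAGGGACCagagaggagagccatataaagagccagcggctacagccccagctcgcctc
The capitals are 3 matches, on either strand, to the NF-kB form that is also marked in both C1q windows. Their first bases lie 197, 33 and 10 bases before the start. The share of all windows with this form at 3 places was not counted.

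*C3* was at 267, 236 and 198 CPM in L1L2-FF and at 40.4, 54.8 and 56.6 CPM in the AKO-labelled libraries. The lowest control was far above the highest library of the other group, and the spread within each was small (highest over lowest 1.35 and 1.40). *C3* fell 4.62-fold, by 2.21 on the log2 scale (standard error 0.178, edgeR adjusted p = 0.000404). With 1 library left out it fell by 2.07 to 2.32 on the log2 scale, with an adjusted p of at most 0.00368.

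The log2 fold changes of the 12 adipocyte markers ran from -1.84 (*Retn*) to 0.41 (*Lep*, not past the threshold). The 5 that fell included *Car3* and *Adipoq*. These genes, for a carbonic anhydrase and the hormone adiponectin, were 2.53-fold and 2.40-fold lower (edgeR adjusted p = 0.0202 and 0.00640), and *Fabp4*, a fatty acid carrier, had a log2 fold change of -0.30 (adjusted p = 0.389). The call of *Car3* was lost in 3 of 6 fits with a library left out (edgeR adjusted p up to 0.0870), while that of *Adipoq* held in all 6. Markers of progenitors and fibroblasts, which also make *C3*, were led by *Col15a1*, *Gsn* and *Dcn*. Their summed level went from 3064 to 3794 CPM in L1L2-FF to 2102 to 2388 CPM, and 1 of 12 fell while 11 did not pass (median log2 fold change -0.41). The part of these markers in the fall of *C3* was not tested.

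*Cfd* also fell. It was at 3642, 4996 and 2514 CPM in L1L2-FF and at 164, 201 and 268 CPM in the AKO-labelled libraries, a 17.6-fold fall (log2 fold change -4.14, standard error 0.328, edgeR adjusted p = 0.000399). *C3* reads were 0.0734, 0.0473 and 0.0787 of *Cfd* reads in L1L2-FF and 0.246, 0.272 and 0.212 in the AKO-labelled libraries. Against C1q, *C3* went the other way: its reads were 2.99, 1.90 and 3.09 times those of the 3 C1q genes in L1L2-FF and 0.165, 0.178 and 0.213 times in the AKO-labelled libraries.

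The order of the 9 genes by level per length of exon changed with *C3*. In CPM per kilobase, *C3* was first in L1L2-FF, at 45.5 ± 6.78 (SD, n = 3), followed by *C1qa* at 31.1 ± 11.4, *C4b* at 27.8 ± 18.0, *C1qb* at 25.5 ± 6.87, *C1qc* at 16.9 ± 5.78 and *C1ra* at 12.6 ± 5.01. Each of these 6 overlapped its neighbour in the order within 1 SD of the means. In the AKO-labelled libraries, *C1qa* was first at 90.5 ± 14.6 CPM per kilobase and *C1qb* next at 80.8 ± 7.64, within the spread of *C1qa*. *C1qc* followed at 47.1 ± 4.55, *C4b* at 40.0 ± 20.2, *C1ra* at 29.5 ± 9.11 and *C3* in place 6 at 9.84 ± 1.73. The spread of *C4b* covered the means of *C1qc* and *C1ra*. The last 3 places were the same in both groups: *C3ar1* at 1.63 ± 0.503 and 4.11 ± 0.254, *C2* at 0.844 ± 0.467 and 1.69 ± 0.930, and *Cfb* at 0.220 ± 0.0972 and 0.603 ± 0.248 CPM per kilobase.

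**Figure D3:**
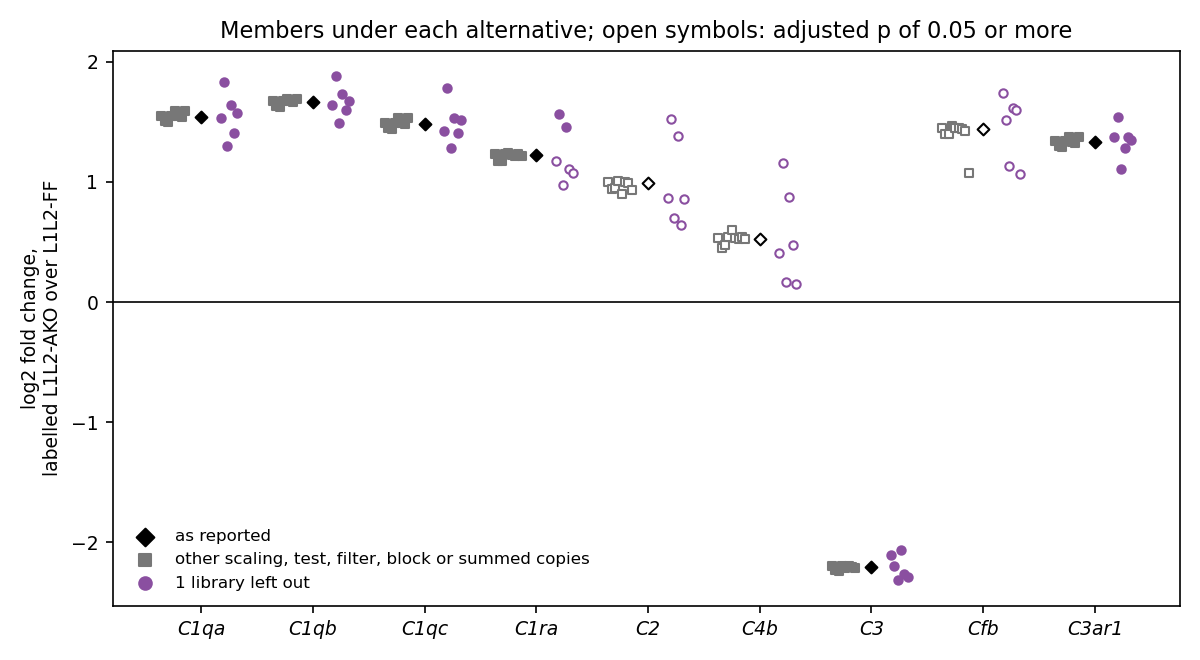
Log2 fold change of the 9 genes as reported (diamonds), under other scalings, tests, filters, a replicate block or summed copies (squares), and with each library left out (circles). Filled symbols have an adjusted p under 0.05. The C1q genes, *C3ar1* and *C3* are filled throughout, *C1ra* is open in 4 of 6 circles, *Cfb* is filled once, and *C2* and *C4b* are open throughout.

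A further 50 complement genes, listed by role, were read beside the 9. Of these, 33 passed the count filter and 13 passed the test, 10 of them higher and 3 lower in the AKO-labelled libraries, with a median log2 fold change of 0.45 over the 33. Groups did not overlap for 16 of the 33. Of all genes tested, 16.5% were called and 36.4% did not overlap. Without L1L2-FF replicate 1, or without AKO-labelled library 2 or 3, the 13 became 6, 7 and 8.

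Among the initiating proteins and proteases (14 genes, 9 tested), 2 rose and 1 fell. *Masp1*, a protease of the lectin pathway, was at 3.22, 4.33 and 6.22 CPM in L1L2-FF and at 21.0, 20.3 and 30.9 CPM in the AKO-labelled libraries, a 5.23-fold rise (edgeR adjusted p = 0.00142). *Cfp*, properdin, which steadies the alternative pathway enzyme, rose 1.88-fold (adjusted p = 0.00754), and the one that fell was *Cfd*.

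Of 19 regulators, 13 were tested, 4 rose and 2 fell. The largest rise was that of *Cfi*, the protease factor I that inactivates C3b and C4b, from 3, 2 and 2 counts to 20, 37 and 136 counts. Over all libraries this is 7 against 193 counts, a ratio of 28.0 with a 95% exact interval of 13.3 to 70.5 that covers counting error only and is too narrow, since single counts were not independent: counts of 2 were 1.77 to 1.97 times as frequent as counts of 1 (edgeR adjusted p = 0.0120). AKO-labelled library 3 gave 136 of the 193 counts, and without it the fitted log2 fold change went from 4.80 to 3.52. The call was lost without L1L2-FF replicate 1 (adjusted p = 0.0524) and with limma-voom (0.0512). *Clu*, clusterin, an inhibitor of the terminal complex, rose 7.69-fold, from 10.4, 13.4 and 10.8 CPM to 54.6, 89.7 and 121 CPM (adjusted p = 0.000734). *Serping1*, the inhibitor of C1r and C1s, was at 67.0, 102 and 48.8 CPM in L1L2-FF and at 83.2, 309 and 306 CPM in the AKO-labelled libraries. AKO-labelled library 1 was below L1L2-FF replicate 2, and the call was close to the threshold (log2 fold change 1.68, adjusted p = 0.0495). *Vtn*, vitronectin, and *Cd55*, which takes apart the C3-cleaving enzymes, were 3.41-fold and 1.61-fold lower (adjusted p = 0.0206 and 0.0122). The call of *Cd55* was lost without L1L2-FF replicate 1 (0.0544) or AKO-labelled library 2 (0.0576), and that of *Vtn* with limma-voom (0.0522) and in 3 of 6 fits with a library left out. Markers of mesothelial cells, 8 genes led by *Lrrn4*, *Gpm6a* and *Krt19*, were scarce, at 4.53 to 5.66 CPM summed in L1L2-FF and 5.04 to 8.94 CPM in the AKO-labelled libraries. *Lrrn4*, the most abundant, was at 3.64, 4.51 and 3.77 CPM in L1L2-FF and at 1.18, 2.16 and 2.69 CPM in the AKO-labelled libraries, lower without overlap but not past the threshold (log2 fold change -0.99, adjusted p = 0.0717). The other 3 that were tested rose. *Krt19* and *Gpm6a* were 4.68-fold and 4.56-fold higher (edgeR adjusted p = 0.0211 and 0.0221), calls lost in 3 and 4 of 6 fits with a library left out. *Wt1* went from 0 counts in all L1L2-FF libraries to 27, 41 and 50 counts (edgeR adjusted p = 0.00307), a call that held in all 6. *Msln* and *Upk1b*, not tested, were at 0 in all L1L2-FF libraries and had at most 4 and 2 counts in an AKO-labelled library.

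Of 10 receptors, 9 were tested, 4 rose and none of the 9 fell. *C5ar1*, the receptor for the fragment C5a, rose 3.02-fold (edgeR adjusted p = 0.00678), and its relative *C5ar2* rose 2.32-fold (adjusted p = 0.0444). *Itgam* and *Itgb2*, which together form complement receptor 3 of myeloid cells, rose 3.22-fold and 2.03-fold (adjusted p = 0.000531 and 0.0365). *Itgam* shares 66.3% of its 50-base stretches with *Gm49368*. The calls of *C5ar1* and *Itgam* held with any 1 library left out, while that of *C5ar2* was lost in 4 and that of *Itgb2* in 5 of 6 such fits.

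The genes of the terminal pathway, which build the membrane pore, gave few reads. Of 7 genes, *Hc* (C5), *C7*, *C8a*, *C8b* and *C9* had at most 8, 4, 4, 2 and 2 counts in any library and were not tested. *C6* had a log2 fold change of 1.36 (edgeR adjusted p = 0.101) and *C8g* of -0.57 (adjusted p = 0.226). A further 2 marker lists, for endothelial cells (8 genes, led by *Cdh5*, *Pecam1* and *Kdr*) and for neutrophils and mast cells (9 genes, led by *Kit*, *Cpa3* and *Cma1*), overlapped between the groups in summed level, at 1898 to 2546 against 1114 to 2417 CPM and at 67.2 to 86.2 against 60.9 to 78.5 CPM. Their median log2 fold changes were -0.45 and -0.26. Of the 8 endothelial genes 0 passed edgeR's test, with 1 at an unadjusted p under 0.05 and 0 in DESeq2 or limma-voom. Of the 7 neutrophil and mast cell genes tested 0 passed, with 2 at an unadjusted p under 0.05, 1 in DESeq2 and 0 in limma-voom.

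**Figure D4:**
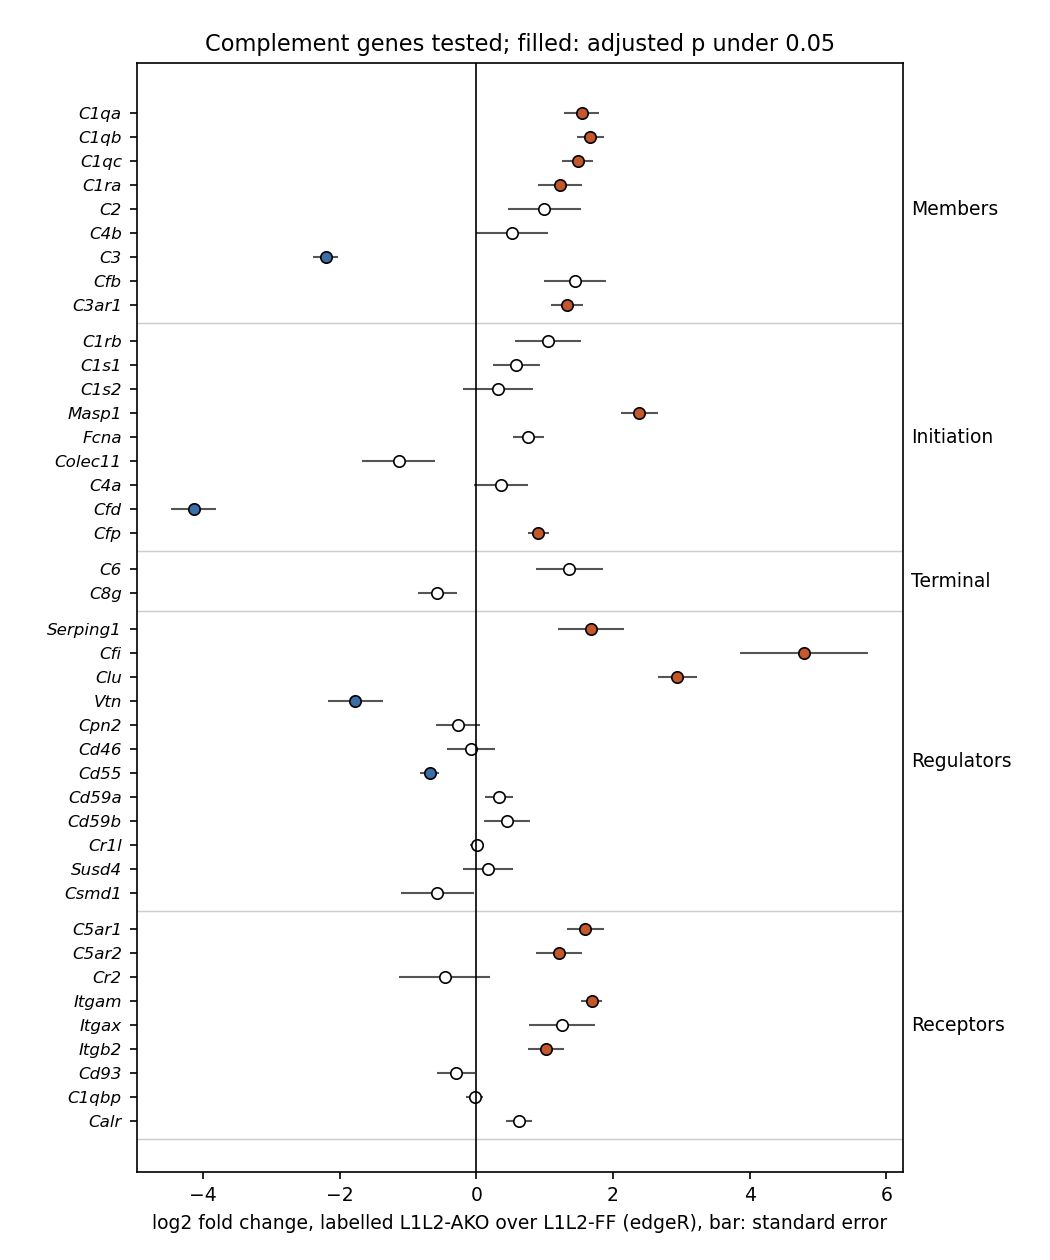
Log2 fold change of the 9 genes and of the other complement genes tested that are reported here, grouped by role, as AKO-labelled over L1L2-FF. Bars are standard errors from edgeR, and filled points passed the threshold, in red where higher and in blue where lower. *C3*, *Cfd*, *Vtn* and *Cd55* are the filled points left of 0, and *Cfi* (4.80, fitted on 7 control counts) and *Clu* (2.94) lie farthest to the right.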

How the data were processed

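Adipocyte RNA of 6 pools of 4 male P7 mice was read as paired ends (BGISEQ-500). Alignment by the authors was to mm10 with HISAT2 2.1.0, followed by StringTie 1.3.5. The deposited table holds whole-number counts for each gene symbol, not normalized. The counting program, its strand setting and the annotation are not given in the sources used here, so overlapping genes and copies may exchange reads.

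Libraries were grouped by their labels. R 4.3.3 was used with edgeR 4.0.16 (filterByExpr with minimum count 10 and minimum total count 15, TMM, quasi-likelihood test, two-sided, Benjamini-Hochberg adjustment, threshold 0.05), DESeq2 1.42.0 and limma 3.58.1. Standard errors are the log2 fold change over the square root of F. Total counts of 30548473 to 32107917 per library set the depth, and counts of 2 were 1.77 to 1.97 times as frequent as counts of 1, so single counts are not independent, and a counting interval is too narrow even for counting error. The common biological coefficient of variation was 0.206. No library repeated another (chi-square per degree of freedom of 28.0 to 146 between replicates). The edgeR, DESeq2 and limma-voom fits were checked on simulated counts with the same dispersion for every gene. The permutation tests were not checked in this way.

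Positions, exon lengths and shared 50-base stretches come from GENCODE M21, and start-site windows from RefSeq (GRCm38.p6). Summaries used Python 3.11.15 with pandas 2.3.3, and plots matplotlib 3.10.9.

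The 9 genes, the other complement genes and the marker lists were chosen with earlier results of these data known. Named were the 9 genes, the other complement genes past the threshold (of which 1 is not reported here), *Cfd*, *C1s1*, *C1rb*, *C4a* and *Serping1*, and from each marker list the 3 genes with the highest mean CPM. The 4 macrophage markers that did not pass, *Retn*, *Lep*, the mesothelial genes at 0 and the terminal pathway genes were named after their values were seen. Alternatives were DESeq2 size factors, library size alone, upper-quartile scaling, DESeq2, limma-voom, no count filter, at least 10 counts in every library, replicate number as a block and each library left out. Summing near-identical copies, and *Cfb* with *C2* and *Gm20547*, was added after the data were seen.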

Additional observations from a re-analysis of the deposited data

How the results depend on the processing

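Scaling, test and count filter left the calls of *C1qa*, *C1qb*, *C1qc*, *C1ra*, *C3* and *C3ar1* in place, and added *Cfb* only with DESeq2 (7 of 9 genes). Scaling moved the median over all genes the most with upper-quartile scaling, by -0.0349 (log2). With each library left out, the 9 genes had 5 to 6 calls, the other complement genes 6 to 15, and all genes 1281 to 2845 in place of 2580. The low values came without L1L2-FF replicate 1 (1290 genes) and without AKO-labelled library 2 (1281) or 3 (1374), which also removed calls of *Vtn*, *Serping1*, *C5ar2* and *Itgb2*. DESeq2 called 3370 genes and the other settings 2413 to 2644. Among markers far from the threshold, *Kdr* turned from 0.03 to -0.0661 on the log2 scale with limma-voom and to -0.0590 with the replicate block, and ranged from -0.32 to 0.32 with a library left out. *Cd79a* ranged from -0.0380 to 0.75 and *Ms4a1* from -0.15 to 0.42 in those fits. The causes were not tested.

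Same-numbered libraries paired weakly and not in every case: their deviations from the group means correlated at 0.188, 0.255 and -0.05. L1L2-FF replicates 1 and 2 correlated best with the library of their own number, and replicate 3 with AKO-labelled library 1 (0.211). With the replicate block 2514 genes passed, 6 of the 9 genes and 14 other complement genes, with *Serping1* (adjusted p = 0.0560) and *C5ar2* (0.0592) no longer past the threshold. The log2 ratio of C1q to macrophage markers stayed at 0.24 within replicate numbers (exact permutation p = 0.25, the smallest that 3 pairs allow).

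With 3 pools per group, differences of the size seen for *C4b* and *C2* could not be told from the spread between pools.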
